A study of Macaca mulatta with 60 samples.

Results

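Small nucleolar RNAs are short noncoding RNAs that work in the nucleolus, most of them cut from the introns of host genes. Box C/D members (symbols SNORD) guide 2′-O-methylation of ribosomal and spliceosomal RNA, box H/ACA members (symbols SNORA) guide pseudouridylation of the same kinds of RNA, and a few have no known target and are called orphan. The transcripts described here are the 37 of 26149 measured transcripts that the study described as small nucleolar RNAs in its 8 lists of transcripts responsive to bisphenol A (BPA), leaving out SNORD52, SNORD74 and SNORD81. They comprised 17 SNORA, 17 SNORD and 3 others named U3, Z17 and R38, set apart by name alone because they carry neither symbol. U3, itself a box C/D RNA, acts in the cleavage of ribosomal RNA precursors. These 37 made up 38 of the 606 list entries, as SNORA28 was listed for 2 comparisons. Members were thus chosen by the difference between BPA exposed and control fetuses in 1 heart chamber and window, so that difference is given as a description with no test, and tests were kept to chambers, muscle and comparisons that did not list the transcript.

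The levels came from 60 arrays, 12 for each of LV, RV, LA and RA (the 4 heart chambers) and of BFM (biceps femoris, a skeletal muscle), from female rhesus macaque fetuses. Each group held 3 samples per tissue. The labels number the samples of every tissue from 1 to 12, and a number goes with the same group throughout. It is called the fetus here, although no source used here states outright that a number is 1 animal in all tissues. Dams of the EG BPA and LG BPA groups took 400 µg/kg body weight of BPA by mouth every day, from day 50 to day 100 of pregnancy in EG and from day 100 until term in LG, while dams of the EG control and LG control groups took the vehicle alone over the same days. EG fetuses (1 to 3 control, 4 to 6 BPA) were taken by caesarian section at the end of dosing and LG fetuses (7 to 9 control, 10 to 12 BPA) after vaginal birth, so gestational age, mode of delivery and the days of dosing cannot be told apart in a comparison of LG with EG. Ventricular cDNA was labelled directly and atrial cDNA after PCR amplification, each chamber had 1 slide, the preparation of BFM is not given in the sources used here, and each tissue was normalized on its own, so tissue, slide and preparation cannot be told apart between chambers.

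The alpha myosin heavy chain transcript MYH6, a heart muscle marker, lay between 14.30 and 14.96 (log2 level) in RA and between 14.34 and 14.76 in LA, ranged from 5.51 to 14.23 in RV, and lay between 6.28 and 10.60 in BFM. In LV it was 14.16 to 14.43 in LG controls but 5.69 to 7.16 in EG fetuses and 5.56 to 13.45 in LG BPA, so most LV arrays, and some RV arrays, read this heart marker no higher than muscle did. Its part, and that of the red cell transcripts ALAS2 and KLF1, in the results was not tested, and their values are given beside the results they move with. The arrays least like the others of their tissue were RV fetus 12 (median correlation with the other arrays 0.848) and LV fetus 2 (0.858).

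Most of the 37 transcripts read low. In the 6 controls, only 7 of 37 lay above the middle of the array in either ventricle, 8 in either atrium and 10 in BFM. The median percentile of the 17 SNORA within the array was 27.5 in BFM, 24.2 and 27.8 in the ventricles LV and RV, and 29.7 and 32.0 in the atria LA and RA. For the 17 SNORD it was 47.2, 37.4, 38.1, 41.9 and 40.4 in the same order. These medians include the control values of the listing chamber, which the choice of members used. Without the transcripts listed in the tissue, the SNORA medians were 36.9 in LV and 23.8 in RV, which turns LV from the lowest tissue for SNORA to the highest, and the SNORD medians were 44.0 in LV, 26.1 in RV and 52.02 in LA. The SNORD median was the higher of both in 25 of 30 control arrays. Each transcript is read by its own 1 or 2 probes, which bind with unequal strength, so the order of SNORD over SNORA is an order of array readings and not of RNA amounts. Other small RNAs on the same lists had median percentiles in BFM of 26.2 for 88 spliceosomal RNAs, 41.5 for 45 Y RNAs and 24.9 for 54 microRNAs.

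The transcripts that read highest were SNORD115 37484 (mean percentile over the 5 tissues 65.9) and SNORD113/SNORD114 50957 (64.6) among SNORD, and SNORA70 (58.0) and SNORA25 35059 (57.4) among SNORA, where transcripts that share a name are told apart by the last 5 digits of the Ensembl identifier. The lowest were SNORD115 48847 (8.32) and SNORD50 (15.1) among SNORD, and SNORA51 (10.9) and SNORA71 (15.3) among SNORA. SNORA70, SNORA71 and SNORA51 guide pseudouridylation, whereas SNORD115, from the imprinted Prader-Willi region, is best known from brain.

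SNORD readings moved further between tissues than SNORA readings. The span from the lowest to the highest tissue had a median of 27.9 percentile points for SNORD and of 14.1 for SNORA, or of 25.01 and 10.8 over the tissues that did not list the transcript, a description with no test. SNORD115 37484 stood at 91.7 ± 1.51 (SD, n = 6 controls) in LA and 86.0 ± 3.42 in RA, against 44.0 ± 15.4 in LV, 52.7 ± 8.57 in RV and 54.9 ± 10.5 in BFM. Over all 12 fetuses its log2 level was 10.26 to 11.33 in LA and 2.85 to 7.35 in LV. SNORD113/SNORD114 50957 was likewise at 83.2 in LA and 83.9 in RA, and at 38.8 in LV and 44.8 in RV. The atrial readings of both were the amplified ones. Both were listed for RV, so their RV controls helped to choose them, while their LV values did not. SNORD42, SNORD45 and SNORD69 also stood higher in the atria, at 67.5, 75.2 and 74.3 in LA. SNORD42 was listed for LV and the other two for RV. In the ventricle that did not list them they stood at 39.7 in RV for SNORD42 and at 52.6 and 62.5 in LV for SNORD45 and SNORD69. SNORD41, listed for LA, had the opposite order, at 72.6 and 73.3 in the ventricles and 48.0 in RA.

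**Figure D1:**
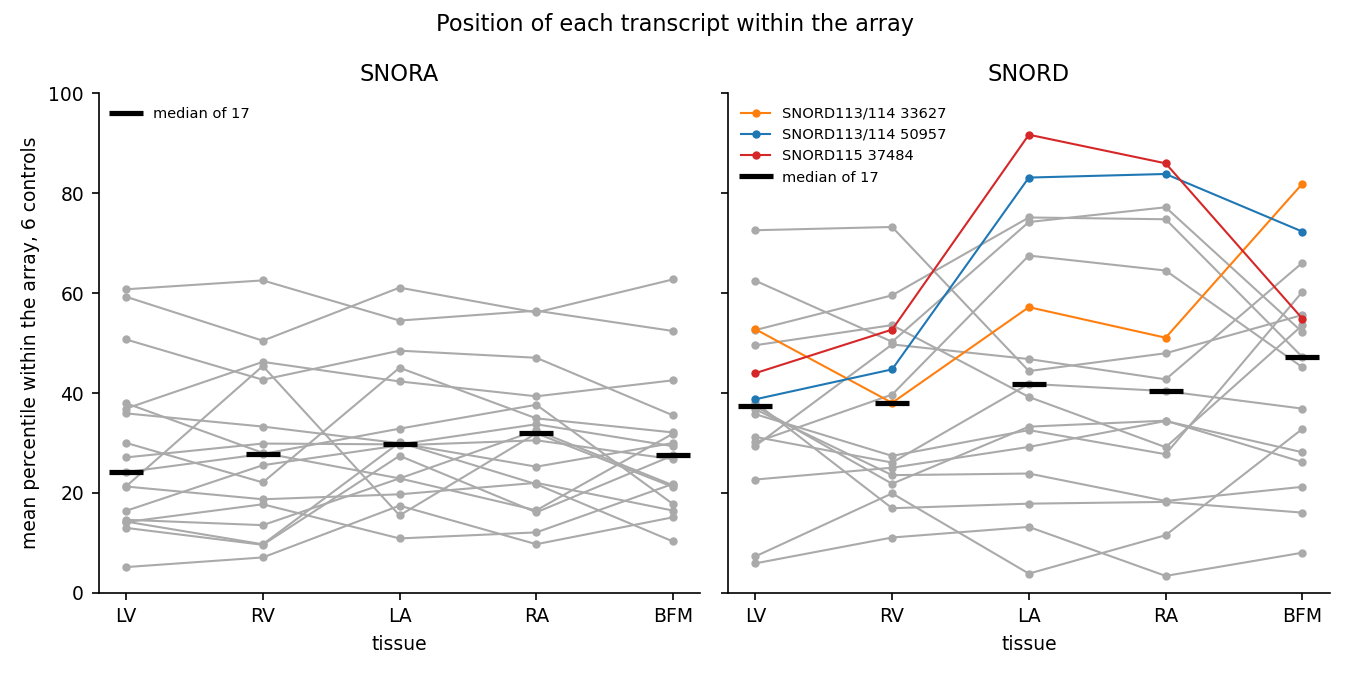
Mean percentile within the array over 6 controls (vertical axis) in LV, RV, LA, RA and BFM for 17 SNORA (left) and 17 SNORD (right), 1 line per transcript, with the class median as a black bar. SNORD115 37484 (red) reached 91.7 in LA and SNORD113/SNORD114 33627 (orange) reached 81.9 in BFM.

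Transcripts with the same name did not always read alike. SNORA25 35059 lay between the 52.4 and 62.6 percentile by tissue and SNORA25 35779 between 9.72 and 30.1. SNORD115 37484 lay between 44.0 and 91.7, and SNORD115 48847 between 3.39 and 13.2. SNORD113/SNORD114 33627 and 50957, by contrast, had nearly the same range, at 38.1 to 81.9 and 38.8 to 83.9. The other SNORD113/SNORD114 transcripts, 35699 and 37756, lay between 29.4 and 66.1 and between 27.4 and 60.3. SNORD77 and SNORD78, which sit in introns of 1 human host gene, GAS5, lay between 21.8 and 37.4 and between 16.1 and 38.1. U3 lay between 9.59 and 31.8, R38 between 9.89 and 21.9 and Z17 between 24.1 and 42.8.

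In skeletal muscle, SNORD113/SNORD114 differed with gestation. These orphan box C/D RNAs lie in the imprinted DLK1-DIO3 region, whose noncoding RNAs are made from the maternal chromosome. In BFM of controls, all 4 SNORD113/SNORD114 transcripts were lower in LG than in EG, by 3.14 to 5.18 on the log2 scale. BFM was used for no list, so none of its values chose the transcripts. MYH6 moved with the same comparison, at 6.30 to 6.54 in EG control muscles and 6.63 to 10.60 in LG control muscles, which did not overlap. The red cell transcripts ALAS2 (8.02 to 8.61 and 7.44 to 8.41) and KLF1 (6.01 to 6.20 and 5.59 to 6.04) overlapped. In whole muscle, fewer cells that make an RNA and less of it per cell cannot be told apart.

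SNORD113/SNORD114 50957 read 12.79, 12.52 and 12.74 in the 3 EG control muscles and 6.82, 7.25 and 8.43 in the 3 LG control muscles. Its log2 fold change was -5.18 ± 0.52 (SE; limma, adjusted p = 4.08e-05). SNORD113/SNORD114 35699 read 11.42, 11.43 and 11.51 in EG controls and 7.37, 6.06 and 7.58 in LG controls. The EG values of both lay within a narrow band and no LG value came near it. The log2 fold change of 35699 was -4.45 ± 0.62 (limma, adjusted p = 0.000252).

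SNORD113/SNORD114 33627 read 12.35, 12.45 and 12.27 in EG controls and 9.10, 8.93 and 9.62 in LG controls, a log2 fold change of -3.14 ± 0.42 (limma, adjusted p = 0.000202). SNORD113/SNORD114 37756 read 9.99, 10.63 and 10.21 in EG controls and 5.62, 6.60 and 8.91 in LG controls, a log2 fold change of -3.23 ± 0.69 (limma, adjusted p = 0.00306). Fetus 9 was the highest of the LG controls for all 4 transcripts, and EG and LG did not overlap for any of them, as for 59.2% of all transcripts tested in BFM. With 3 against 3 fetuses an exact permutation test cannot fall below 0.1, and all 4 reached that value. Probe sequences were not used here, so how much the 4 readings share probes or cross-hybridize was not tested, and they are not 4 independent observations.

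The direction was the same between other fetuses, with other sizes. Between EG BPA and LG BPA, which share no sample with the controls, the log2 fold change in BFM was -3.25 for 50957, -3.22 for 35699, -2.16 for 33627 and -3.68 for 37756 (limma, adjusted p = 0.000732 to 0.00214). In these muscles 50957 read 12.72, 12.21 and 12.70 in EG BPA and 10.30, 8.03 and 9.53 in LG BPA. Fetus 11 was the lowest LG BPA value for all 4 transcripts, and no groups overlapped, as for 57.2% of all transcripts tested. MYH6 in these muscles was 6.28 to 6.95 in EG BPA and 6.88 to 8.49 in LG BPA, which overlapped, with fetus 11 the highest. In LG control muscles the match by fetus was mixed. MYH6 was highest in fetus 8 (10.60), which read lowest for 35699 and 33627. It was lowest in fetus 7 (6.63), which read lowest for 50957 and 37756. The gestation difference in BPA exposed fetuses minus that in controls was 1.93 ± 0.74 for 50957 and -0.44 to 1.23 for the others, and none was called (limma, adjusted p = 0.999).

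**Figure D2:**
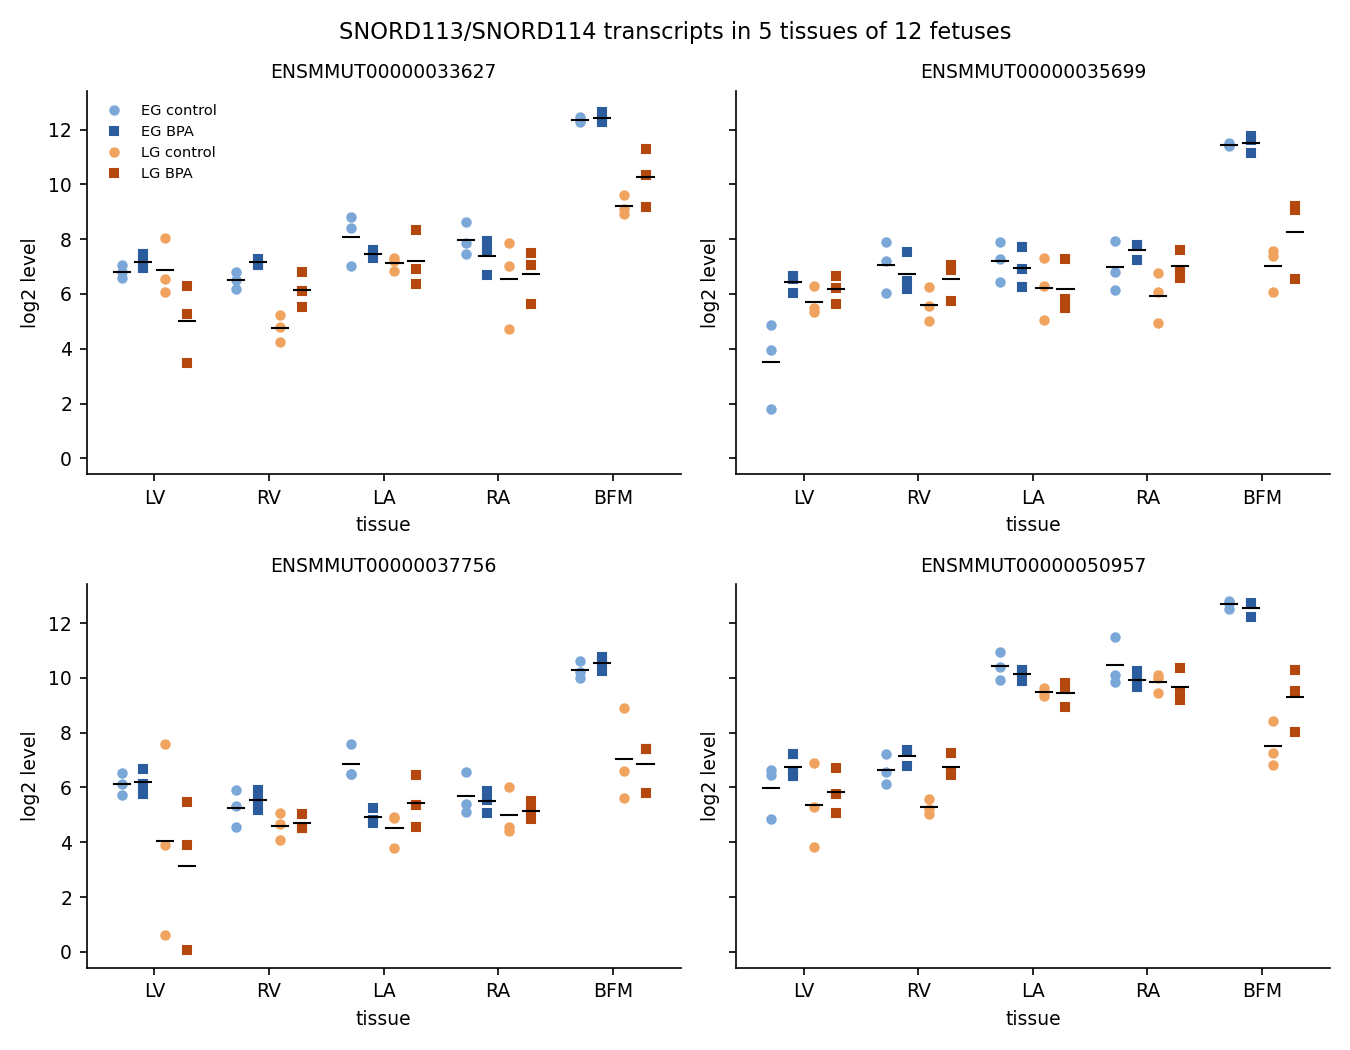
Log2 level of the 4 SNORD113/SNORD114 transcripts (1 panel each) in 5 tissues; each point is 1 fetus, circles are controls, squares BPA exposed, blue EG and orange LG, and bars are means of 3. In BFM every EG value of 50957 was at or above 12.21 and every LG value at or below 10.30.

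Over the whole class, 5 of the 20 transcripts that passed the filter on variation in BFM (interquartile range of at least 0.5) passed both limits used for a call (LG and EG controls apart by 1 or more on the log2 scale, unadjusted p no higher than 0.01), beside 26.6% of the 8609 transcripts tested. All 5 were SNORD and lower in LG, where 13.9% of all tested were lower. The share called was thus close to the background for the class, and the number rests on the SNORD113/SNORD114 transcripts. The fifth was SNORD115 37484, which read 8.30, 9.24 and 8.69 in EG controls and 6.68, 7.70 and 7.93 in LG controls (log2 fold change -1.30 ± 0.36, limma adjusted p = 0.0112). In BPA exposed muscles its difference was -0.58 and was not called, and in controls the call was lost without fetus 2 or fetus 7 and in a fit of only the 6 control arrays compared.

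SNORD50, whose human copies lie in introns of SNHG5, was near the limit in BFM. It read 6.89, 7.15 and 6.72 in EG controls and 6.16, 6.08 and 5.52 in LG controls, a log2 fold change of -1.003 ± 0.34 (limma, adjusted p = 0.0298). It met an adjusted p of 0.05 but not the unadjusted limit, beside 28.2% of all transcripts by the adjusted limit. The groups did not overlap. Between the BPA exposed groups it was lower by a log2 fold change of -1.42 and was called (limma, adjusted p = 0.0069), as were the 4 SNORD113/SNORD114, beside a background of 23.1%.

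No SNORA was called with gestation in BFM, where 8 of 17 passed the filter. Over all 17, the log2 fold change ran from -0.57 (SNORA41) to 0.57 (SNORA2/SNORA34), with 9 above 0 and 8 below, and the smallest adjusted p was 0.103. The 13 SNORD other than SNORD113/SNORD114 ran from -1.30 to 0.50. Of the small RNAs on the same lists, 0 of 58 spliceosomal RNAs, 1 of 34 Y RNAs and 4 of 33 microRNAs that passed the filter were called in this comparison.

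In the heart chambers, no transcript outside its own listing chamber was called with gestation in controls. The numbers tested were 21 in either ventricle, 15 in LA and 27 in RA, and the backgrounds, in the order LV, RV, LA and RA, were 2.95%, 6.68%, 6.78% and 5.47% of all transcripts tested. At 3 against 3 fetuses a change of 2 on the log2 scale was recovered for 55.5% of simulated transcripts in LV. It was at least 88.5% in the other tissues, so such a change was missed more often in LV. The simulated transcripts came from all that passed the filter. Small nucleolar RNAs not listed in the chamber scattered more within groups. Their median SD was 1.08 in LV, 0.63 in RV, 0.58 in LA and 0.64 in RA, against 0.58, 0.41, 0.31 and 0.34 for all transcripts. Recovery for them alone was not simulated. MYH6 in LV was 6.44 to 6.73 in EG controls and 14.16 to 14.43 in LG controls, beside the LV gestation values and those of BFM against LV. The SNORD113/SNORD114 values in these chambers were smaller than in BFM. Outside their listing chambers they were -0.95 to -0.98 in LA, -0.62 to -1.45 in RA, -0.65 and -1.45 in RV, and -2.09, -0.63 and 0.06 in LV.

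The difference between BFM and a chamber was itself tested, after the BFM values had been seen. For 50957 the gestation difference in BFM minus that in LV was -4.55 ± 0.97, minus that in LA -4.23 ± 0.62 and minus that in RA -4.56 ± 0.71, at limma adjusted p = 0.0213, 0.000247 and 0.00047. For 35699 it was -3.00 ± 0.84 against RV, -3.47 ± 0.93 against LA and -3.41 ± 0.84 against RA (limma, adjusted p = 0.0447, 0.0243 and 0.0172), with the call against RV lost without fetus 1. For 33627 both limits were met against LV (-3.20 ± 0.83) and LA (-2.17 ± 0.69) but not RA (-1.69 ± 0.88), at limma adjusted p = 0.0526, 0.0572 and 0.275. The call against LA was lost without fetus 1, 7 or 8, and RA met the limits without fetus 8. For 37756 they were met against RV (-2.58 ± 0.81) and RA (-2.53 ± 0.88) but not LV (-1.15 ± 1.85), at limma adjusted p = 0.0691, 0.0857 and 0.843. The RV call was lost without fetus 3, 7 or 8, with values of -3.49 to -1.63 on leaving out 1 fetus, and the RA call without fetus 1, 2, 7 or 8 and with median centring (-3.77 to -1.80). Against LV the value was 1.34 without fetus 7 and -3.78 without fetus 9. The tissues were normalized separately, and backgrounds in these tests were 6.21% against LV, 9.08% against RV, 9.61% against LA and 9.3% against RA.

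**Figure D3:**
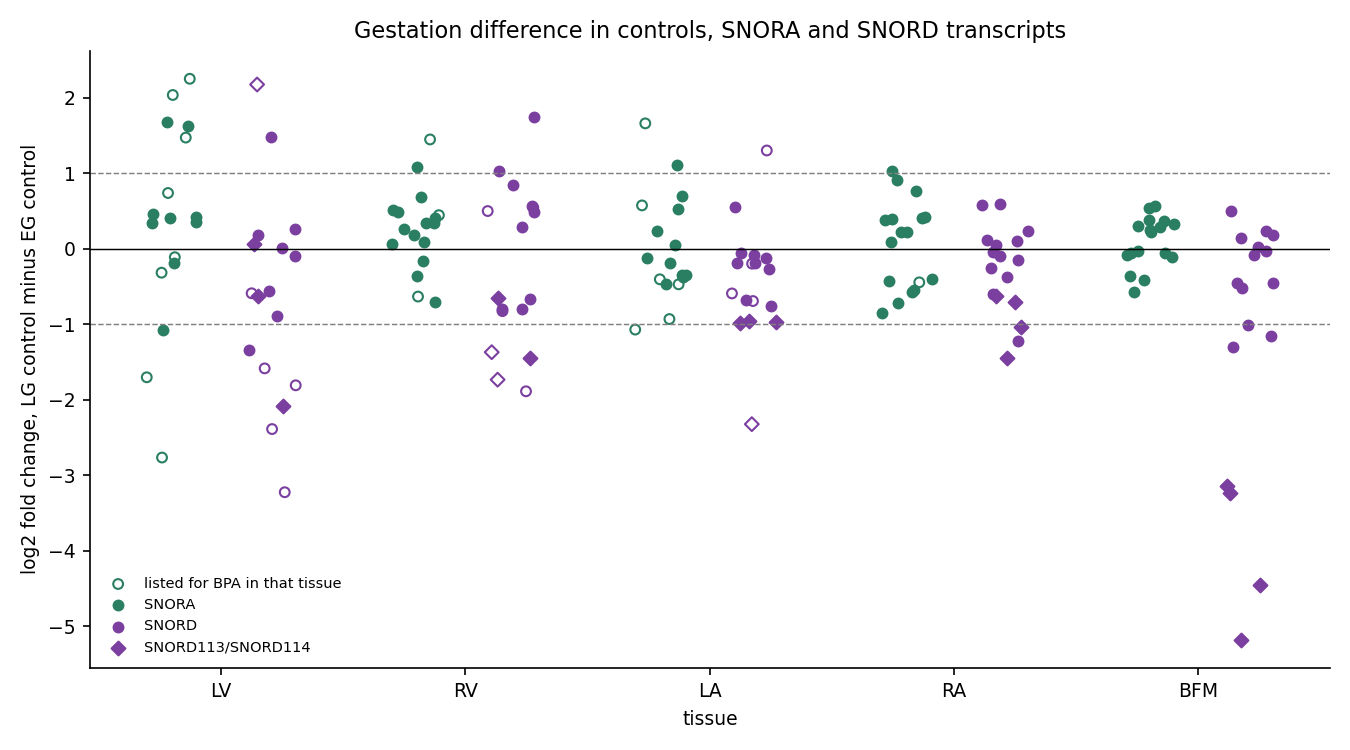
Log2 fold change of LG control minus EG control (vertical axis) for 17 SNORA (green) and 17 SNORD (purple) in each tissue; diamonds are SNORD113/SNORD114, open symbols mark transcripts listed for BPA in that tissue, and dashed lines mark a change of 1. The 4 diamonds in BFM, at -3.14 to -5.18, lie below every other value drawn apart from SNORD96 in LV at -3.23, an open symbol.

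Averaged per fetus over the tissues that did not list them, 6 transcripts were lower in LG than in EG controls at an unadjusted p of at most 0.01, and none was higher. The call of 33627 was lost without fetus 2, 3 or 8. The share of all transcripts meeting that limit was 11.5% without LV, 10.1% without RV, 10.7% without LA, 9.79% without RA and 10.6% without LA and RV. They were the 4 SNORD113/SNORD114 (log2 fold change -1.37 to -1.98), SNORD77 and SNORD50, so all were SNORD. Of the 17 SNORA, 12 were above 0, and their values ran from -0.34 to 0.63. Without BFM only 1 of the 6 met the limit, SNORD77, and the SNORD113/SNORD114 values were then -0.74 to -1.16.

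SNORD77 was lower in LG than in EG controls by a log2 fold change of -1.12 ± 0.26 over LV, LA, RA and BFM (limma, adjusted p = 0.0298). In a fit of all arrays with the fetus number as a block, the call was lost. Between the BPA exposed groups the value was -0.53 ± 0.26 and was not called (limma, adjusted p = 0.296). It read 6.92, 6.74 and 5.58 in RA of EG controls and 5.00, 4.83 and 5.74 in RA of LG controls. In LV it read 6.23, 5.19 and 7.17 in EG controls and 5.69, 4.39 and 4.49 in LG controls. In each of these chambers the groups overlapped, and the 4 tissue values (-1.34 in LV, -0.76 in LA, -1.22 in RA and -1.16 in BFM) had 1 direction. SNORD78, from the same host gene in humans, gave -0.90 in LV, 1.04 in RV, -0.15 in RA and 0.50 in BFM, none of which was called.

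SNORD50 was lower over RV, LA, RA and BFM by -0.64 ± 0.16 (limma, adjusted p = 0.0275), and in the BPA exposed fetuses by -0.59 ± 0.16 (limma, adjusted p = 0.0438). In RA it read 4.48, 4.96 and 4.73 in EG controls and 4.35, 4.12 and 3.91 in LG controls. The control groups did not overlap there, but its BPA exposed groups did, at 4.54, 4.16 and 3.84 in EG and 4.04, 5.21 and 4.96 in LG.

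Between the BPA exposed groups, the means over tissues called the 4 SNORD113/SNORD114 and SNORD50 again, together with SNORD18, which was higher in LG. SNORD18 guides methylation of ribosomal RNA and was listed for LA in EG. Over LV, RV, RA and BFM its log2 fold change was 1.52 ± 0.25 in BPA exposed fetuses (limma, adjusted p = 0.00469) and 0.59 ± 0.25 in controls (limma, adjusted p = 0.201). The difference between both was 0.93 ± 0.36 (limma, adjusted p = 0.991, beside a background of 0.876%) and did not pass. The backgrounds between BPA exposed groups were 10.9% without LV, 9.76% without RV, 11.4% without LA, 10.7% without RA and 9.92% without LA and RV. In LV it read 5.46, 5.48 and 4.38 in EG BPA and 8.32, 7.24 and 9.01 in LG BPA, which did not overlap, and 7.63, 5.89 and 6.36 in EG control and 5.89, 7.81 and 5.91 in LG control, which did.

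**Figure D4:**
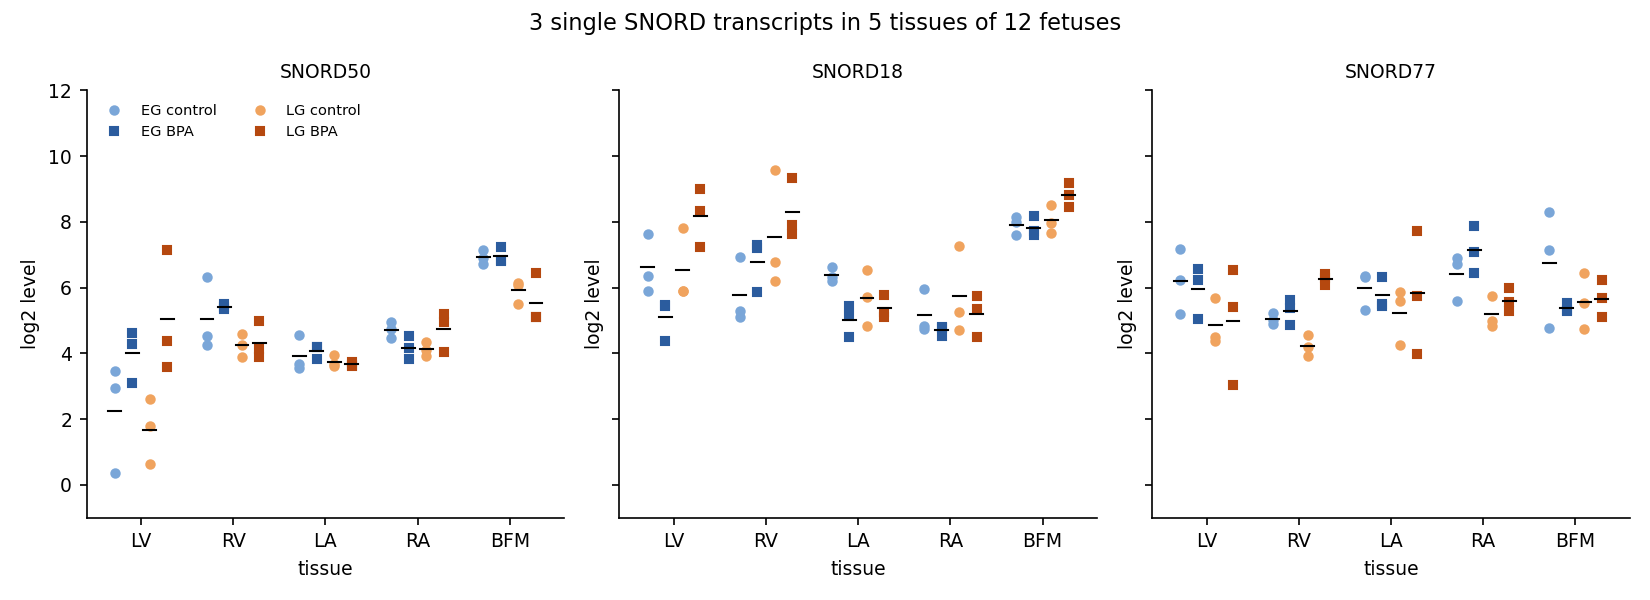
Log2 level of SNORD50, SNORD18 and SNORD77 in 5 tissues, with points, colours and bars as in the plot of SNORD113/SNORD114. SNORD50 was lower in LG than EG in BFM, SNORD18 was higher in LG BPA than EG BPA in LV, and SNORD77 in RA spanned 5.58 to 6.92 in EG controls and 4.83 to 5.74 in LG controls.

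The remaining calls between BPA exposed groups outside the listing chamber were 33627 (-2.15) and SNORD18 (3.09) in LV, SNORD96 (-1.77) in LA and SNORD77 (-1.53) in RA. The backgrounds there were 3.59% in LV, 7.31% in LA and 5.91% in RA, and RV had no call beside 6.49%. Their limma adjusted p-values were 0.111 to 0.274. The gestation difference did not differ past the limits between LV and RV or between LA and RA for any transcript listed in neither chamber, with backgrounds of 2.09% and 0.465%.

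The values that put the transcripts on the BPA lists are given as a description. In LV 7 were listed for EG and 8 for LG, in RV 2 and 7, in LA 3 and 9, and in RA 1 and 1. The log2 fold change of BPA over control was positive for 25 entries and negative for 13, and all 8 LV entries of LG were positive. The sizes lay between 1.79 and 4.09 for LV, between 1.32 and 2.04 for RV and between 1.22 and 1.93 for LA, and were 1.59 and 1.60 for RA. All transcripts meeting the same limits made up 0.925% and 0.84% of those tested for LV in EG and LG, 0.615% and 0.549% for RV, 0.582% and 1.09% for LA, and 0.439% and 0.439% for RA. BPA exposed and control fetuses did not overlap in 35 of the 38 entries. Over all transcripts tested, groups did not overlap in 10.7% and 8.21% for LV in EG and LG, 18.6% and 4.51% for RV, 9.07% and 10.6% for LA and 6.11% and 7.58% for RA. The limma adjusted p of the entries was 0.194 at the lowest. Since the entries were picked for this difference, nothing is read from these shares.

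Heart muscle and red cell markers moved with some of these comparisons. The study itself called MYH6 in LV of LG and listed KLF1 in LV of EG. There they met the same limits that chose the entries, so they are not markers from outside the lists. MYH6 in LV was 14.16 to 14.43 in LG controls and 5.56 to 13.45 in LG BPA, without overlap, beside the 8 LV entries of LG. ALAS2 in LA was 6.49 to 8.89 in LG controls and 9.26 to 12.91 in LG BPA, without overlap, beside 9 entries. The other red cell marker, KLF1, overlapped there, at 4.73 to 4.91 in LG controls and 4.26 to 6.87 in LG BPA. In EG, KLF1 was lower after BPA without overlap in LV (7 entries), at 5.49 to 6.22 against 4.29 to 4.54. The same held in LA (3 entries), at 5.26 to 5.62 against 4.30 to 4.74. ALAS2 overlapped in both chambers in EG. It was 8.45 to 8.72 in controls and 7.75 to 8.93 after BPA in LV, and 8.01 to 9.93 and 8.25 to 9.34 in LA. In RV of LG, with 7 entries, ALAS2 (7.89 to 8.81 and 8.79 to 10.17) and MYH6 (6.47 to 14.23 and 7.63 to 13.68) overlapped. The part of these markers in the listed differences was not tested.

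The largest entry was SNORD115 48847 in LV, which read -0.93, 1.26 and 0.63 in LG controls and 4.84, 6.20 and 2.19 after BPA. SNORA51 in LV read 1.34, -0.90 and 0.63 in LG controls and 3.41, 4.84 and 4.61 after BPA. SNORD96 in LV read 5.26, 3.17 and 0.63 in LG controls and 5.76, 7.62 and 7.28 after BPA. The value 0.63 was the lowest of the array of control fetus 9, -0.93 that of fetus 7 and -0.90 that of fetus 8. These are floors and not measured levels, so SNORD115 48847 and SNORA51 each had 2 controls at a floor. In 5 of the 8 LV entries of LG at least 1 control lay at its array's lowest value. Of the 37 transcripts, 11 had at least 1 LV array at the lowest value (29.7%), against 5.95% of all transcripts, 37.5% of the spliceosomal RNAs, 33.3% of the Y RNAs and 46.3% of the microRNAs on the same lists. Readings at the lowest value were thus no trait of the small nucleolar RNAs alone, and the part of this in the listed differences was not tested.

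U3 in LV read 5.39, 6.63 and 4.63 in EG controls and 4.04, 2.30 and -0.10 after BPA. The value -0.10 was the lowest of that array, so it is a floor and not a measured level, and SNORA38 also had 1 BPA exposed fetus at its array's lowest value in LV of EG. Z17 in LA read 5.57, 5.26 and 5.16 in LG controls and 7.23, 7.25 and 6.65 after BPA, and R38 in RA read 4.21, 4.96 and 5.18 against 6.24, 6.21 and 6.70. SNORD77 in RV had the smallest adjusted p of the entries and read 4.56, 3.92 and 4.20 in LG controls and 6.08, 6.43 and 6.28 after BPA. SNORD78, of the same human host gene, was listed in LA with the opposite direction, at 5.72, 5.06 and 4.93 in LG controls and 3.80, 3.70 and 3.78 after BPA.

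Several entries ran against each other. SNORA28 was lower after BPA in RV of EG (6.93, 5.24 and 6.62 in controls, 4.61, 4.34 and 5.14 after BPA) and higher in LA of LG (3.96, 4.39 and 4.57 in controls, 5.88, 4.87 and 5.82 after BPA). SNORA25 35059 was listed as higher in RV of LG and SNORA25 35779 as lower in LA of LG. Of the SNORD113/SNORD114 transcripts, 35699 was listed as higher in LV of EG, 33627 and 50957 as higher in RV of LG, and 37756 as lower in LA of EG.

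The entry nearest the fold limit was SNORA28 in LA of LG, at 1.22. The transcript just outside that limit in the same comparison had a log2 fold change of -0.998. The entry nearest the p limit was SNORD41, also in LA of LG, with an unadjusted limma value of 0.00997 against 0.01005 for the transcript just outside.

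**Figure D5:**
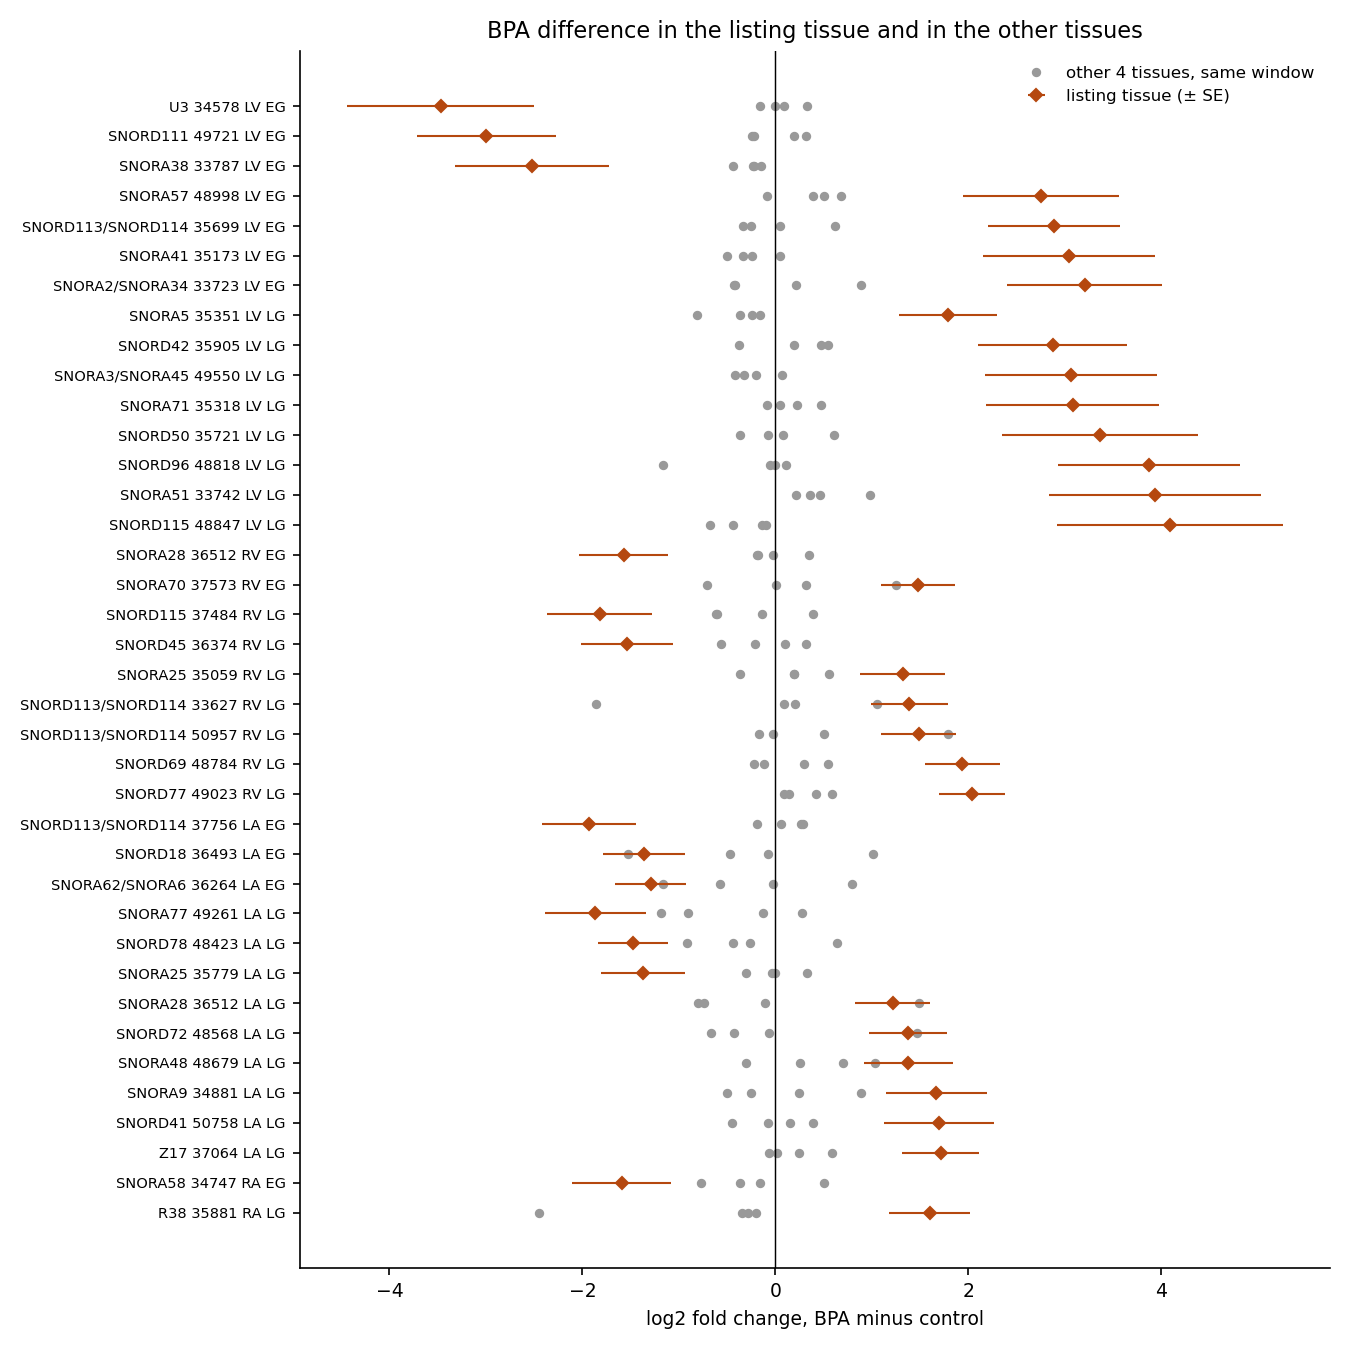
Log2 fold change of BPA minus control (horizontal axis) for each of the 38 list entries in the chamber that listed it (diamonds, ± SE) and in the other 4 tissues of the same window (grey points). Listed sizes are at least 1.22 by choice, and most grey points lie within 1 of 0.

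Outside the comparison that listed it, 1 transcript was called for BPA in 246 tests over 10 comparisons of tissue and window. Some of these tests lay in the other window of the listing chamber. In LV of EG, for example, 29 transcripts were tested, and 21 of them were not listed in LV. There the filter and the variance drew on the arrays that listed the transcript, so the 246 tests are not free of the choice of members. SNORD113/SNORD114 50957 was higher after BPA in BFM of LG by a log2 fold change of 1.79 ± 0.52 (limma, adjusted p = 0.66; exact permutation test p = 0.2), beside a background of 0.825% in that comparison. The LG controls read 6.82, 7.25 and 8.43 and the BPA exposed fetuses 10.30, 8.03 and 9.53, and fetus 11 lay within the range of the controls. Leaving out 1 fetus gave 1.28 to 2.42, and the call was lost without fetus 7, 8, 10 or 12. In the other comparisons 0 were called by limma, where BFM in EG had a background of 0.267%, and over all 246 tests 14 (5.69%) had an unadjusted p of at most 0.05, beside 3.88% of the tests of all transcripts in the same 10 comparisons.

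The BPA difference in LG minus that in EG met the unadjusted limits outside the lists for SNORD18 in LV and SNORA2/SNORA34 in LA, and for none in RV, RA or BFM. Neither passed adjustment (limma, adjusted p = 0.777 and 0.752). The call was lost in 11 of 21 alternatives for SNORD18 and in 10 of 19 for SNORA2/SNORA34, most of them fits without 1 fetus. The shares of all transcripts called were 1.17% in LV and 1.23% in LA, and 0.515%, 0.332% and 0.499% in the other tissues in the order RV, RA and BFM.

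For the listed window in the other 4 tissues, the difference had the listed direction in 85 of 152 values, and the median size was 0.30 against 1.81 in the listing chamber. These samples carry the same fetus numbers and the listed size was chosen, so the gap is a description. The entries with the listed direction in all 4 other tissues were SNORD77 at 0.09 to 0.59, SNORA51 at 0.22 to 0.98 and SNORA38 at -0.44 to -0.15. SNORA5, SNORD115 48847 and R38 had it in none. Averaged over the tissues that did not list them, 0 transcripts met an unadjusted p of 0.01 by limma in EG or in LG. The backgrounds in EG and LG were 0.249% and 0.91% without LV, 0.887% and 0.864% without RV, 0.665% and 0.841% without LA, 0.688% and 0.792% without RA and 0.876% and 0.91% without LA and RV. The smallest p was that of SNORA51 in LG, at a log2 fold change of 0.50 ± 0.18 (limma, adjusted p = 0.982).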

How the data were processed

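Total RNA was read on a custom NimbleGen array that held 1 or 2 probes for each small RNA. Values were deposited on the log2 scale, which the authors reached by robust multichip averaging, run separately for each tissue. Scanner intensities were not used here, so background per array is unknown, and array number limits precision.

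Identifiers were taken from the study's lists, of which 66 of 606 entries (3 of the 38 used) had lost zeros in reading; these were padded, and all entries were found among the measured transcripts. The members and lists were chosen with earlier results of these data known. A linear model with 4 group means was run for each tissue (limma 3.58.1, R 4.3.3), leaving out transcripts whose interquartile range was under 0.5, as the study did. A call needed a difference of 1 or more on the log2 scale and an unadjusted p no higher than 0.01, with Benjamini-Hochberg adjustment over all transcripts tested beside it; means over tissues had no fold limit. Named transcripts were those called outside their lists, the extremes of level, families that share a name or host gene, SNORA28, U3, Z17, R38 and those nearest the limits; SNORD42, SNORD45, SNORD69, SNORD41, SNORA5, SNORA38 and SNORA41 were chosen after their values were seen. Each tissue had 3 samples per group. The labels give a number from 1 to 12 that goes with the same group in every tissue. It was taken to name the fetus, for averages over tissues and as a block in an alternative, though no source states it outright. In simulated data 200 transcripts were shifted by 2, and the call found 55.5% of them for LV (17628 tested), 88.5% for RV (12031), 89% for LA (7903), 88.5% for RA (9329) and 93.5% for BFM (8609). Proteins that bind small nucleolar RNAs, host genes and RNA sequences were not analysed here. Alternatives changed the filter, the centring, the arrays in the fit, the call limit and the fetus left out; the comparisons of BFM with each chamber and of windows on means over tissues were added after the data had been seen.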

Additional observations from a re-analysis of the deposited data

Results flagged for a closer look

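In 2 cases the BPA difference itself differed between windows by an interaction test in a chamber that did not list the transcript, by the unadjusted limit alone. For SNORD18 in LV, the BPA difference in LG exceeded that in EG by 3.18 ± 0.97 on the log2 scale (limma, adjusted p = 0.777), beside 1.17% of all transcripts tested. For SNORA2/SNORA34 in LA the difference was -2.11 ± 0.69 (limma, adjusted p = 0.752), beside 1.23%. Markers also separated BPA exposed from control fetuses in these chambers, with the values given beside the list entries. They were MYH6 in LV of LG, ALAS2 in LA of LG and KLF1 in EG of both chambers. The other marker comparisons there overlapped, and the part of the markers was not tested. SNORA2/SNORA34 in LA read 4.52, 4.75 and 4.04 in EG controls, 4.70, 5.96 and 5.31 in EG BPA, 6.29, 6.04 and 4.32 in LG controls and 4.21, 4.61 and 4.16 in LG BPA. Leaving out 1 fetus gave 2.68 to 3.81 for SNORD18, with the call lost without fetus 1, 3, 4, 5, 6, 7, 9, 10 or 12, and -2.72 to -1.74 for SNORA2/SNORA34, with the call lost without fetus 1, 3, 5, 6, 7, 8, 10 or 12.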

How the results depend on the processing

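The 4 SNORD113/SNORD114 differences with gestation in BFM controls met the limits in all 16 alternatives tried. Calls in the chambers were few and moved with the setting. With gestation, BPA exposed in place of control fetuses gave 2 calls in LV, 1 in LA and 1 in RA, and leaving out 1 control gave 0 to 2 in LA (fetus 1 or 9) and RA (3 or 9), 0 to 1 in RV (1) and 1 to 2 for BFM against RV (1, 3, 7 or 8). For BPA in EG, 1 was called in LV with a mean above the 25th percentile, and 1 in RV with no filter, with median centring or with only the 6 arrays compared. Without 1 fetus it was 0 to 1 in LV (1, 3 or 5), RV (2), LA (1 or 4), BFM (2) and the mean over tissues (1 or 3). For BPA in LG, 0 were called in BFM by adjusted p or with only 6 arrays, and without 1 fetus 0 to 3 in BFM (7, 9, 10, 11 or 12), 0 to 1 in LV (8 or 12) and LA (9 or 11) and 0 to 2 in the mean over tissues (7, 10 or 11). The BPA difference between windows called 0 in LV and LA with an interquartile range of at least 1 or by adjusted p, and 0 in LA without dim transcripts. Without 1 fetus it called 0 to 3 in BFM (2, 9 or 11) and 0 to 1 in LV, LA and RA (10). Without BFM, the means over tissues called 1 with gestation and 1 with BPA in LG. Samples of 1 number deviated together from their group means with a correlation over 0.1 in 54 of 120 pairs of tissues and samples (median 0.0906), and a sample correlated best with its own number in 187 of 240 comparisons with the 3 of its group in another tissue, where 80 would be 1 in 3. This is a hint from the data, not the design, that the numbers pair the samples. With the fetus number as a replicate block (consensus correlation 0.0418 to 0.0813), means over tissues called 5 with gestation against 6, SNORD77 being lost, and 0 with BPA, and no count between tissues moved. The difference between BFM and LV for 37756 was -3.78 to 1.34 on leaving out 1 fetus, at 1.34 without replicate 7. Median percentiles without listed transcripts were 36.9 for SNORA in LV, 26.1 for SNORD in RV and 52.02 for SNORD in LA, and for SNORD in RV 30.8 in LG controls and 30.4 with U3, Z17 and R38 included. The cause of these moves was not tested. Among transcripts simulated from all that passed the filter, a shift of 2 was recovered for 55.5% in LV. It was at least 88.5% in the other tissues, so such a shift was missed more often in LV.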
